A study of Mus musculus with 4 samples.

Results

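The 10 mouse genes for the peroxiredoxins (Prdx1 to Prdx6), the thioredoxins (Txn1 and Txn2) and the thioredoxin reductases (Txnrd1 and Txnrd2) were chosen by gene symbol, out of 12750 symbols in the 4 expression tables. All 10 had a row in each library. RNA-seq had been carried out on bone marrow cells of C57BL/6 mice, either wild type (WT) or with a knockout of the kinase gene GRK6 (GRK6-/-), to ask which transcripts change when this kinase of G protein-coupled receptors is missing. The study's hematopoietic stem cells (HSC) were sorted as Lin-c-kit+sca-1+ cells, and its common lymphoid progenitors (CLP) by the same markers plus Il-7Ra. The HSC gate did not exclude Il-7Ra by its label, so it can hold CLP. Each of the 4 groups (HSC of WT mice, CLP of WT mice, and the same 2 populations of GRK6-/- mice) was 1 library, pooled from the amplified cDNA of 13 to 15 picked cells of 3 to 4 mice. The labels give no age, sex or treatment other than the genotype. No group had a replicate, so the spread between mice or cells could not be estimated, and values below have no SD. The knockout allele lacks exons 3 to 9 by the study's description.

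Peroxiredoxins are thiol peroxidases that reduce hydrogen peroxide through a reactive cysteine. Thioredoxins reduce the disulfide that forms on most peroxiredoxins, and thioredoxin reductases, which are selenoproteins, recharge thioredoxin with electrons from NADPH. Separate sets work in the cytosol and in mitochondria, and in blood the cytosolic enzyme of red cells, Prdx2, is known for its abundance.

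The coding bases around the reactive residues, on which the chemistry of these enzymes rests, are shown to tell the family's branches apart. They were read from the mouse genome of build NCBIM37 (the same assembly as mm9, used by the files) with the GENCODE vM1 annotation, on the coding strand, 5′ to 3′. In the 6 peroxiredoxins the capitals mark the codon of the peroxidatic cysteine.
Prdx1: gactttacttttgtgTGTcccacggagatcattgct
Prdx2: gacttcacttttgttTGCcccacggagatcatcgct
Prdx3: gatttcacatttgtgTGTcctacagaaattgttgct
Prdx4: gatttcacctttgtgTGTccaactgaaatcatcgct
Prdx5: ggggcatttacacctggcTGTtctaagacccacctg
Prdx6: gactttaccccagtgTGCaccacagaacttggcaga
In both thioredoxins the capitals mark the 2 cysteine codons of the active site.
Txn1: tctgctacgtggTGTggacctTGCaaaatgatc
Txn2: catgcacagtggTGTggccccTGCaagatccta
In both reductases, which end here with their stop codon, the capitals mark a cysteine codon and the in-frame TGA that is read as selenocysteine.
Txnrd1: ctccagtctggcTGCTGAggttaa
Txnrd2: actgtgactggtTGCTGAggctaa

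Prdx1 and Prdx2 shared 32 of the 36 bases of this window, and the pairs among Prdx1 to Prdx4 shared at least 26. Txn1 and Txn2 shared 22 of 33 bases, and the reductases 16 of 24. The window of Prdx1 lay on chromosome 4 at 116364413 to 116364448, within exon 3 of 6 of the annotated transcript, and that of Prdx2 on chromosome 8 at 87494367 to 87494402, also within exon 3 of 6. The window of Prdx6 lay within exon 2 of 5 on chromosome 1 (163177481 to 163177516), and that of Txn1 within exon 2 of 5 on chromosome 4 (57964684 to 57964716). The selenocysteine codon of Txnrd1 lay in the last of 15 exons on chromosome 10 (82358767 to 82358790), and that of Txnrd2 in exon 17 of 18 on chromosome 16 (18477850 to 18477873). The windows of Prdx3 (chromosome 19), Prdx4 (chromosome X), Prdx5 (chromosome 19) and Txn2 (chromosome 15) were each joined from 2 exons.

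The targeted gene went against the label. Grk6 had 42.7 FPKM in WT HSC and 89.4 FPKM in the library labelled GRK6-/- HSC, and 26.9 FPKM in WT CLP and 57.6 FPKM in the library labelled GRK6-/- CLP. FPKM is the number of fragments scaled to the length of the transcript and to all mapped fragments of the library, which makes levels of different genes comparable per length. Whether the poly(dT) priming and the amplification left coverage uneven along transcripts was not tested, and the order, sums and shares of members below rest on FPKM as deposited. One value per gene does not show whether the deleted exons were read, so the genotype of the 2 libraries could not be checked, and every direction below is that of the library labelled GRK6-/-. Il7r, which encodes the receptor that defines the CLP gate, had no row in WT HSC, 1.08 FPKM in the library labelled GRK6-/- HSC, 120 in WT CLP and 75.1 in the library labelled GRK6-/- CLP. Kit, the receptor of both gates, had 26.2 to 81.8 FPKM, while Ly6a, which encodes Sca-1, was in a joint row and was not read. The 6 lymphoid markers, Il7r included, summed to 114 and 93.7 FPKM in HSC (WT, then labelled GRK6-/-) and 2632 and 1773 in CLP. In that order in CLP, Rag1 had 23.0 and 2.47 FPKM, Rag2 94.5 FPKM and no row, and Ebf1 24.99 and 82.05 FPKM. The 7 measured stem and progenitor markers, Kit included, summed to 308 and 448 FPKM in HSC and 408 and 622 in CLP. This last sum was higher in CLP with either label, and the make-up of the libraries was not tested. The 10 myeloid markers summed to 7744 to 17759 FPKM, highest in WT HSC, and their part in the levels below was not tested. By the low FPKM values of 103 to 162 genes per library, the libraries were scaled to an estimated 2773320 to 4335109 fragments. This estimate could be too low, as the paper states a read number per lineage well above it. All fragment numbers and counting intervals below rest on it. The members had an estimated 19 to 3653 fragments each. In pooled RNA, fewer cells that express a gene and less of its RNA per cell cannot be told apart.

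Transcripts of the family were abundant as a sum in all 4 libraries, but not for every member. In WT HSC, members ranked from the top 0.723% (Txn1) to the top 73.5% (Txnrd2) of genes with a value. The summed level of the 10 members was 2332 FPKM in WT HSC, 2446 FPKM in the library labelled GRK6-/- HSC, 1838 FPKM in WT CLP and 2388 FPKM in the library labelled GRK6-/- CLP, or 0.284% to 0.399% of all FPKM. Txn1 was the highest member in 3 libraries, and Prdx2 was the highest in the library labelled GRK6-/- CLP. The lowest member was Txnrd2 in both WT libraries and Txnrd1 in both libraries labelled GRK6-/-. Txn2 and Prdx5 lay close together in WT HSC, at 256 and 250 FPKM, as did Prdx4 and Prdx3 at 92.8 and 91.1 FPKM. Without replicates, whether any neighbours in this order differ beyond the spread between samples could not be tested.

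**Figure D1:**
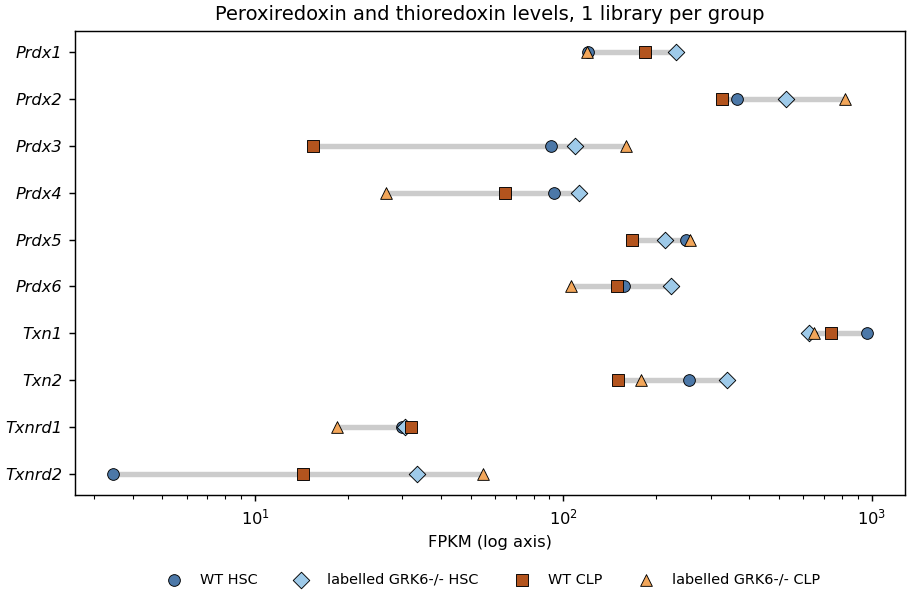
FPKM of the 10 members (log axis), with 1 point per library and a grey bar from the lowest to the highest library. Txnrd2 (3.45 to 54.9 FPKM) and Prdx3 (15.4 to 160 FPKM) have the longest bars, and Prdx5 and Txn1 the shortest.

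The spread between libraries was uneven over the family. The highest library was 15.9-fold above the lowest for Txnrd2, 10.4-fold for Prdx3 and 4.23-fold for Prdx4. The other 7 members ranged from 1.54-fold (Prdx5 and Txn1) to 2.50-fold (Prdx2).

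Beginning with the mitochondrial branch, Txnrd2, the reductase that serves mitochondrial thioredoxin, had 3.45 FPKM in WT HSC, 33.6 FPKM in the library labelled GRK6-/- HSC, 14.3 FPKM in WT CLP and 54.9 FPKM in the library labelled GRK6-/- CLP. Both libraries labelled GRK6-/- were above both WT libraries. The log2 ratio of FPKM + 1 (used for every ratio below) was 2.96 in HSC and 1.87 in CLP, or 9.73-fold and 3.83-fold on FPKM itself. The low level in WT HSC rested on an estimated 19 fragments, against 242 in the library labelled GRK6-/- HSC, 118 in WT CLP and 290 in the library labelled GRK6-/- CLP. The 95% counting interval of the log2 FPKM ratio was 2.60 to 4.03 in HSC and 1.63 to 2.26 in CLP. Such intervals cover counting error only, and not the spread between cells, mice or amplifications.

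Prdx3, the peroxiredoxin of the mitochondrial matrix, stood out by 1 library. Its level was 91.1 FPKM in WT HSC, 109 FPKM in the library labelled GRK6-/- HSC, 15.4 FPKM in WT CLP and 160 FPKM in the library labelled GRK6-/- CLP. WT CLP was the low library, while the other three lay between 91.1 and 160 FPKM. The log2 ratio of the library labelled GRK6-/- over WT was therefore 3.30 in CLP (10.4-fold, counting interval 3.07 to 3.69 on the FPKM ratio) and 0.26 in HSC, and that of WT CLP over WT HSC was -2.49. Any ratio that uses WT CLP for this gene rests on that library's estimated 99 fragments.

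Txn2, the mitochondrial thioredoxin, moved less. It had 256 FPKM in WT HSC, 339 FPKM in the library labelled GRK6-/- HSC, 150 FPKM in WT CLP and 178 FPKM in the library labelled GRK6-/- CLP. Both HSC libraries were above both CLP libraries, with log2 ratios of CLP over HSC of -0.77 in WT and -0.92 in the libraries labelled GRK6-/-. The ratios over WT were 0.40 in HSC and 0.25 in CLP, both under the 2-fold threshold. Summed over Prdx3, Txn2 and Txnrd2, the mitochondrial branch had 351 and 482 FPKM in the WT and labelled GRK6-/- HSC libraries (log2 ratio of the sums 0.46) and 180 and 393 FPKM in the corresponding CLP libraries (1.13).

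Turning to the cytosolic enzymes, Prdx2 had 366 FPKM in WT HSC, 529 FPKM in the library labelled GRK6-/- HSC, 327 FPKM in WT CLP and 817 FPKM in the library labelled GRK6-/- CLP. The libraries labelled GRK6-/- were again above both WT libraries, with log2 ratios of 0.53 in HSC and 1.32 in CLP. Only the ratio in CLP was past 2-fold. Genes of the red cell lineage moved in the same libraries. The 8 measured of the 10 erythroid markers summed to 43.7 FPKM in WT HSC, 773 FPKM in the library labelled GRK6-/- HSC, 20.0 FPKM in WT CLP and 17600 FPKM in the library labelled GRK6-/- CLP. Most of the last sum was Hba-a2, a hemoglobin alpha chain, at 17220 FPKM. Most of the sum in the library labelled GRK6-/- HSC was Car1, at 612 FPKM against 24.5 FPKM in WT HSC. The other measured erythroid markers were also higher there than in WT HSC, except Slc4a1 (0.0752 FPKM in WT HSC and no row there). Alas2, the erythroid enzyme of heme synthesis, had 128 FPKM in the library labelled GRK6-/- CLP and no row in WT CLP. B lineage markers (5 of 6 measured) summed to 886 FPKM in that library, against 90.3 FPKM in WT CLP and at most 41.9 FPKM in HSC. The part of erythroid or B lineage RNA in the levels of Prdx2 and the other members was not tested. The locus given for Prdx2 also differed in the library labelled GRK6-/- CLP, at 87493515 to 87498298 of chromosome 8 against 87493547 to 87498212 in the other three, and the effect on its FPKM was not tested. Prdx2 shares 177 exonic bases with Rnaseh2a on the opposite strand, which had 16.4 to 54.7 FPKM. The counting is not stated to use strand, so reads from the shared bases cannot be assigned to either gene.

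Prdx1, the other abundant cytosolic typical 2-Cys enzyme, had 120 FPKM in WT HSC, 232 FPKM in the library labelled GRK6-/- HSC, 183 FPKM in WT CLP and 120 FPKM in the library labelled GRK6-/- CLP. The direction differed between populations, with a log2 ratio of 0.94 in HSC and -0.61 in CLP, neither past 2-fold. Its ratio to Prdx2 thus shifted, and Prdx2 exceeded Prdx1 by 3.04-fold in WT HSC, 2.28-fold in the library labelled GRK6-/- HSC, 1.78-fold in WT CLP and 6.83-fold in the library labelled GRK6-/- CLP.

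Prdx6, the 1-Cys member that also acts on phospholipid hydroperoxides, had 158 FPKM in WT HSC, 223 FPKM in the library labelled GRK6-/- HSC, 149 FPKM in WT CLP and 105 FPKM in the library labelled GRK6-/- CLP. The 2 libraries labelled GRK6-/- were the highest and the lowest, and the WT libraries lay between them. Its log2 ratios over WT were 0.50 in HSC and -0.49 in CLP. Prdx6 followed the same order of libraries as Prdx4, which is described below.

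Txn1, the cytosolic thioredoxin, was the most even member together with Prdx5. It had 965 FPKM in WT HSC, 625 FPKM in the library labelled GRK6-/- HSC, 736 FPKM in WT CLP and 649 FPKM in the library labelled GRK6-/- CLP. Both libraries labelled GRK6-/- were below both WT libraries, by log2 ratios of -0.63 in HSC and -0.18 in CLP, neither past 2-fold. Txn1 was 3.76-fold and 1.84-fold above Txn2 in the WT and labelled GRK6-/- HSC libraries, and 4.91-fold and 3.64-fold above it in the CLP libraries.

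Txnrd1, the cytosolic reductase, had 30.0 FPKM in WT HSC, 30.5 FPKM in the library labelled GRK6-/- HSC, 31.9 FPKM in WT CLP and 18.4 FPKM in the library labelled GRK6-/- CLP. The first 3 values were close together, and the log2 ratio over WT was 0.02 in HSC and -0.76 in CLP. The mitochondrial and cytosolic reductases therefore exchanged their order. Txnrd2 had 0.115 times the FPKM of Txnrd1 in WT HSC and 0.449 times in WT CLP, but 1.10 times in the library labelled GRK6-/- HSC and 2.99 times in the library labelled GRK6-/- CLP. Summed over Prdx1, Prdx2, Prdx6, Txn1 and Txnrd1, the cytosolic genes were nearly level between the HSC libraries (1639 FPKM in WT and 1640 FPKM in the library labelled GRK6-/-) and had 1427 and 1710 FPKM in the CLP libraries.

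Prdx4 and Prdx5 work elsewhere in the cell. Prdx4, the peroxiredoxin of the endoplasmic reticulum, had 92.8 FPKM in WT HSC, 112 FPKM in the library labelled GRK6-/- HSC, 64.4 FPKM in WT CLP and 26.5 FPKM in the library labelled GRK6-/- CLP. It was lower in CLP than in HSC with either genotype label, by log2 ratios of -0.52 in WT and -2.04 in the libraries labelled GRK6-/-. Against WT the ratio was 0.27 in HSC and -1.25 in CLP (counting interval -1.67 to -0.90 on the FPKM ratio), which made Prdx4 the 1 member past 2-fold that was lower in the library labelled GRK6-/- CLP.

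Prdx5, an atypical 2-Cys enzyme found in mitochondria, peroxisomes and cytosol, had 250 FPKM in WT HSC, 213 FPKM in the library labelled GRK6-/- HSC, 167 FPKM in WT CLP and 258 FPKM in the library labelled GRK6-/- CLP. The log2 ratio over WT was -0.23 in HSC and 0.62 in CLP, and no pair of libraries differed by 2-fold. This gene shares 409 exonic bases with Trmt112 on the opposite strand (47.3 to 145 FPKM). The locus given for Prdx5 ended at position 6996298 of chromosome 19 in both WT libraries but at 6984953 in the library labelled GRK6-/- HSC and 6984508 in the library labelled GRK6-/- CLP, so its FPKM were not computed over the same models. The loci of Txn2 and Prdx6 differed between libraries by under 10 bases at either end, and those of the remaining 6 members were identical. RefSeq lists further copies or pseudogenes of Txn1, Prdx2 and Prdx6 without a row of their own in the files, and how reads that match several copies were placed is not given in the sources used here.

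**Figure D2:**
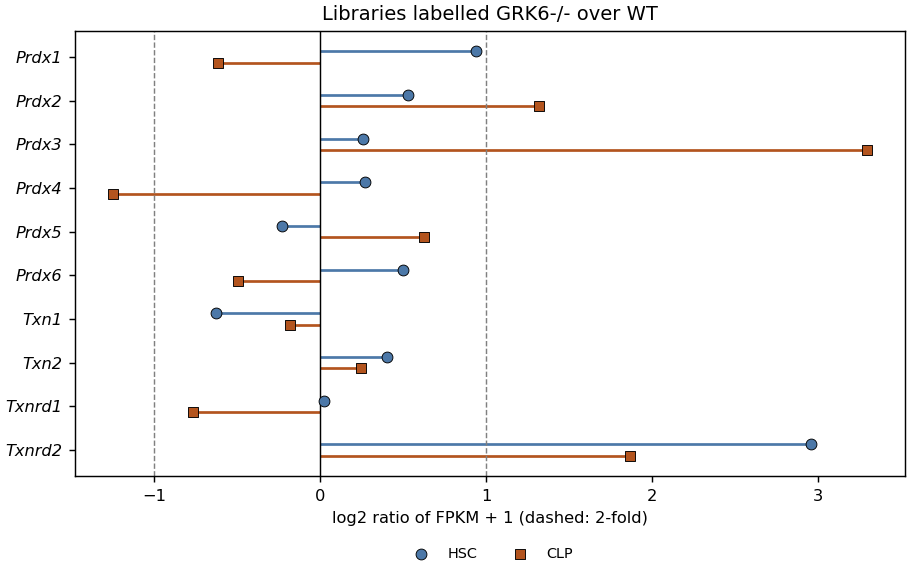
log2 ratio of FPKM + 1 of each member in the library labelled GRK6-/- over WT, for HSC (circles) and CLP (squares), with dashed lines at 2-fold. Txnrd2 lies past the right line in both populations, whereas Prdx2 and Prdx3 do so in CLP only and Prdx4 lies past the left line in CLP only.

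In HSC, 1 of the 10 members was past 2-fold, Txnrd2, where 37.4% of all genes with a value were (19.3% higher and 18.0% lower). Among genes with a mean of at least 100 FPKM, which are measured with more fragments, the share was 19.8%. Txnrd2 did not reach that mean, and among genes with a mean of at least 10 FPKM the share was 33.3%. In CLP, 4 members were past 2-fold, against 50.0% of all genes and 25.7% of those with a mean of at least 100 FPKM. Of these 4, only Prdx2 reached that mean, and the share at a mean of at least 10 FPKM was 45.0%. The 3 that were higher (Prdx2, Prdx3 and Txnrd2) stand beside 26.6% of all genes, and the 1 that was lower (Prdx4) beside 23.4%. A 2-fold difference was thus common in these libraries. The 1 of 10 members in HSC is below all of these shares. The 4 of 10 in CLP lie below the shares of all genes and of genes with a mean of at least 10 FPKM, and above that of highly expressed genes. Neither count sets the members apart. Txnrd2 was the 1 member past 2-fold in the same direction in both populations, and 5.66% of 10398 genes were higher in both. The median log2 ratio of the members was 0.34 in HSC and 0.03 in CLP, against 0.05 in both for all genes. The median size of the ratio, without its sign, was 0.45 and 0.69 for the members, 0.72 and 1.0 for all genes, and 0.42 and 0.52 for genes with a mean of at least 100 FPKM.

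The genotype difference shared by both populations was fitted with limma on log2(FPKM + 1) of 10324 genes, with population as a term and 1 residual degree of freedom. No gene passed an adjusted p of 0.05, and 418 had an unadjusted p under 0.05 (lowest adjusted p of limma 0.535). Txnrd2 had a difference of 2.41 ± 0.883 (SE, log2 scale), higher in 2 of 2 pairs of libraries, with an unadjusted limma p of 0.0364 and an adjusted p of 0.947, which ranged from 0.947 to 0.959 over the alternatives. Prdx3 had 1.78 ± 1.07 (limma adjusted p = 0.947) and Prdx2 had 0.93 ± 0.869 (limma adjusted p = 0.970). No member was therefore shown to differ by genotype label beyond the variation left in this fit.

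**Figure D3:**
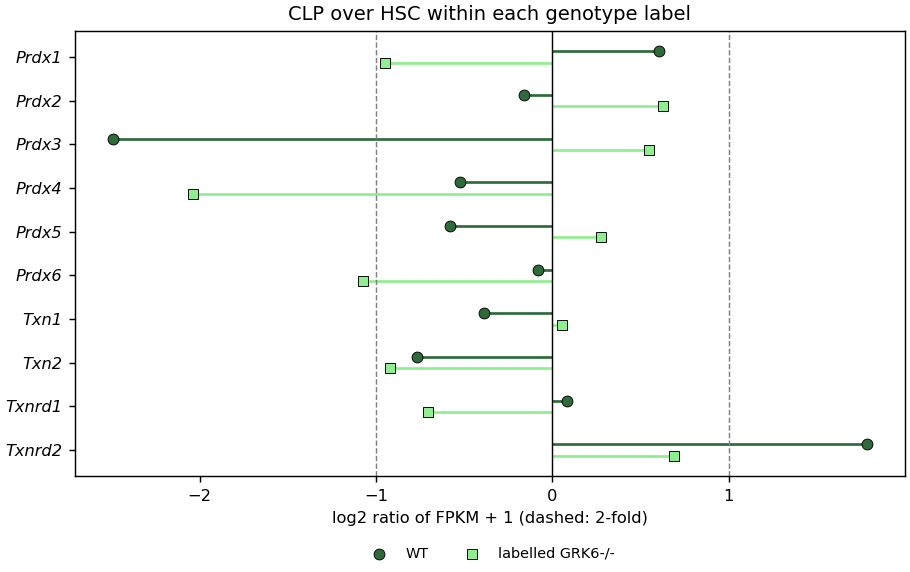
log2 ratio of FPKM + 1 of each member in CLP over HSC, for the WT libraries (circles) and the libraries labelled GRK6-/- (squares), with dashed lines at 2-fold. Prdx3 and Txnrd2 are past 2-fold in WT, Prdx4 and Prdx6 in the libraries labelled GRK6-/-, and none is past it in both.

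Between populations, WT CLP differed from WT HSC by over 2-fold in 2 members, with Txnrd2 higher (1.78) and Prdx3 lower (-2.49), where 46.5% of all genes did (21.8% higher and 24.7% lower), or 23.8% of those with a mean of at least 100 FPKM. The library labelled GRK6-/- CLP differed from the library labelled GRK6-/- HSC in 2 other members, Prdx4 (-2.04) and Prdx6 (-1.07), both lower, against 45.6% of all genes (22.3% higher and 23.4% lower) and 26.4% of those with a mean of at least 100 FPKM. These comparisons use the same 4 libraries as those between genotype labels. Prdx4, Prdx6 and Txn2 were lower and Txnrd2 was higher in CLP with either label, and for the other 6 members the direction of CLP against HSC differed between the labels. In the limma fit, 0 genes passed for population (524 with an unadjusted p under 0.05, lowest adjusted p 0.335). Prdx4 had a limma difference of -1.28 ± 0.911 (SE, log2, CLP minus HSC, adjusted p = 0.884) and Txnrd2 of 1.24 ± 0.883 (adjusted p = 0.884).

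Summed over the 6 peroxiredoxins, the level was 1078 FPKM in WT HSC, 1418 FPKM in the library labelled GRK6-/- HSC, 906 FPKM in WT CLP and 1487 FPKM in the library labelled GRK6-/- CLP. Prdx2 made up 33.9% to 37.3% of this sum in 3 libraries and 55.0% in the library labelled GRK6-/- CLP. Prdx3 made up 7.70% to 10.8% in 3 libraries and 1.70% in WT CLP, and Prdx4 7.11% to 8.62% in 3 libraries and 1.78% in the library labelled GRK6-/- CLP. Between the HSC libraries, Prdx1 made up 11.2% in WT and 16.4% in the library labelled GRK6-/-, and Prdx5 23.2% and 15.0%. The 2 thioredoxins summed to 1221, 964, 886 and 828 FPKM and the 2 reductases to 33.5, 64.1, 46.3 and 73.3 FPKM in the same order of libraries. Reductase transcripts were at a small fraction of the thioredoxin level throughout, and the sum of the reductases was higher in both libraries labelled GRK6-/- while that of the thioredoxins was lower.

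**Figure D4:**
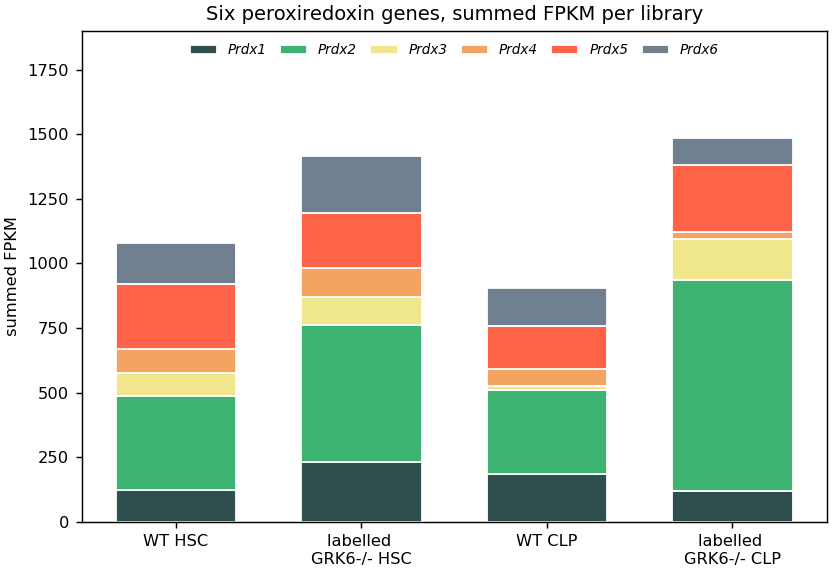
Summed FPKM of the 6 peroxiredoxin genes in each library, split by gene, on an axis that starts at 0. The Prdx2 segment is largest in the library labelled GRK6-/- CLP (817 FPKM), and the Prdx3 segment is smallest in WT CLP (15.4 FPKM).

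By likeness of profile, 5761 genes with a mean of at least 10 FPKM were compared with Txnrd2, the member of widest range, by the Euclidean distance between centred log2(FPKM + 1) values over the 4 libraries. The nearest was Thoc1 at a distance of 0.139, with 2.41, 26.1, 9.57 and 40.5 FPKM in WT HSC, labelled GRK6-/- HSC, WT CLP and labelled GRK6-/- CLP. Ngdn (0.503), Med17 (0.542), Nrf1 (0.567) and D1Bwg0212e (0.674) followed. All 5 were lowest in WT HSC and highest in the library labelled GRK6-/- CLP, as Txnrd2 was. They were picked for nearness to its profile, so this shared order follows from the selection and is no separate result. Only 4 points stand behind each distance. Among the members themselves, the closest pair was Prdx6 and Txnrd1 (0.471), followed by Prdx1 and Prdx6 (0.518).

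Genes related to the thioredoxin system were past 2-fold in shares near those of all genes. Of the 46 genes of 5 lists, 8 were higher and 7 lower by over 2-fold in the library labelled GRK6-/- HSC, and of the 45 with a value in CLP, 11 were higher and 11 lower in the library labelled GRK6-/- CLP. The shares of all genes, which apply to each list below, were 19.3% higher and 18.0% lower in HSC and 26.6% higher and 23.4% lower in CLP. Nothing particular to a list of 4 to 20 genes can be read from its count. The median log2 ratio was 0.17 in HSC and -0.06 in CLP, against 0.05 for all genes in both.

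The 9 partners and regulators had 1 gene higher and 1 lower by over 2-fold in HSC and 3 higher and 4 lower in CLP (median log2 ratio -0.40 and 0.00). Txnip, which binds and inhibits thioredoxin, had 101 FPKM in WT HSC, 62.4 FPKM in the library labelled GRK6-/- HSC, 62.3 FPKM in WT CLP and 121 FPKM in the library labelled GRK6-/- CLP. It was under 2-fold in both comparisons and opposite in direction. Txnrd3, a further reductase best known from testis, had 4.11, 2.88, 0.731 and 18.8 FPKM in that order, a log2 ratio of 3.52 in CLP. Srxn1, sulfiredoxin, which repairs overoxidised peroxiredoxins, had 21.0 FPKM in WT CLP, 1.13 FPKM in the library labelled GRK6-/- HSC and no row in the other two. Sesn1, a sestrin, had 37.7, 15.4, 37.4 and 37.4 FPKM, with the library labelled GRK6-/- HSC below the other three, which were nearly equal.

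Among the 20 thioredoxin-fold proteins, 2 were higher and 4 lower in the library labelled GRK6-/- HSC, and 4 were higher and 6 lower in the library labelled GRK6-/- CLP (median log2 ratio 0.18 and -0.21). Tmx1, a membrane-bound thioredoxin-related protein of the endoplasmic reticulum, had 24.7 FPKM in WT HSC, 5.31 FPKM in the library labelled GRK6-/- HSC, 20.1 FPKM in WT CLP and 0.795 FPKM in the library labelled GRK6-/- CLP. Tmx1 was the 1 gene of this list past 2-fold in the same direction in both populations (log2 ratio -2.03 and -3.55), and 4.43% of 10398 genes were lower in both. Tmx2, a related membrane protein, went opposite ways, with 13.1, 44.2, 38.3 and 13.9 FPKM. Txnl4b, a thioredoxin-like protein of splicing complexes, had 3.46, 6.43 and 10.7 FPKM in WT HSC and the libraries labelled GRK6-/- HSC and CLP, and no row in WT CLP.

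The 4 glutaredoxins, which use glutathione, had medians of 0.99 in HSC and -0.18 in CLP. In HSC, Glrx (44.3 and 106 FPKM) and Glrx2 (6.62 and 17.4 FPKM) were past 2-fold, both higher in the library labelled GRK6-/-. Glrx3, of iron-sulfur metabolism, was past 2-fold in CLP, with 17.2 FPKM in WT and 68.2 FPKM in the library labelled GRK6-/-. Glrx was 80.4 and 59.7 FPKM in CLP, under 2-fold and in the other direction.

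The list of enzymes that thioredoxin reduces had 7 genes, with ribonucleotide reductase entered by its subunits. Being listed does not mean that each subunit is itself reduced by thioredoxin. By over 2-fold, 1 gene was lower in HSC and 1 of the 6 with a value was higher in CLP (median log2 ratio 0.14 and 0.16). The former was Msrb1, a selenoprotein that repairs oxidised methionine, at 45.9 FPKM in WT HSC and 20.4 FPKM in the library labelled GRK6-/- HSC. The latter was Rrm2, the S-phase subunit of ribonucleotide reductase, at 29.0 FPKM in WT CLP and 216 FPKM in the library labelled GRK6-/- CLP, with 23.7 and 27.3 FPKM in HSC. Rrm1, its partner subunit, had 34.7 and 48.8 FPKM in CLP and 42.1 and 65.5 FPKM in HSC, under 2-fold in both. Msra, another methionine sulfoxide reductase, had 37.0 and 18.4 FPKM in CLP, just under 2-fold on this scale. Msrb3 had a row only in the library labelled GRK6-/- HSC, at 0.0700 FPKM.

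Selenocysteine has to be made and inserted before either reductase is active, and 3 of these 6 genes were higher and 1 was lower in the library labelled GRK6-/- HSC, with 2 higher and 1 lower in CLP (median log2 ratio 1.12 and 0.15). Pstk, the kinase that acts on the charged selenocysteine tRNA, had 26.3 FPKM in WT HSC, 70.7 FPKM in the library labelled GRK6-/- HSC, 3.65 FPKM in WT CLP and 10.9 FPKM in the library labelled GRK6-/- CLP. Pstk was past 2-fold and higher in both populations (log2 ratio 1.39 and 1.36), where 5.66% of 10398 genes were. Txnrd2 was also higher in both, but the 2 profiles differed. Pstk was lower in CLP than in HSC with either label (-2.55 in WT and -2.59 in the libraries labelled GRK6-/-), where Txnrd2 was higher. A link between the 2 genes was not tested. Secisbp2, which reads the signal for selenocysteine in the transcript, had 0.601, 20.8, 26.4 and 6.97 FPKM, opposite in the 2 populations (3.77 and -1.78). Sephs2, a selenophosphate synthetase, had 68.4 and 31.8 FPKM in HSC, and Eefsec, the dedicated elongation factor, had 11.7 and 55.2 FPKM in CLP.

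**Figure D5:**
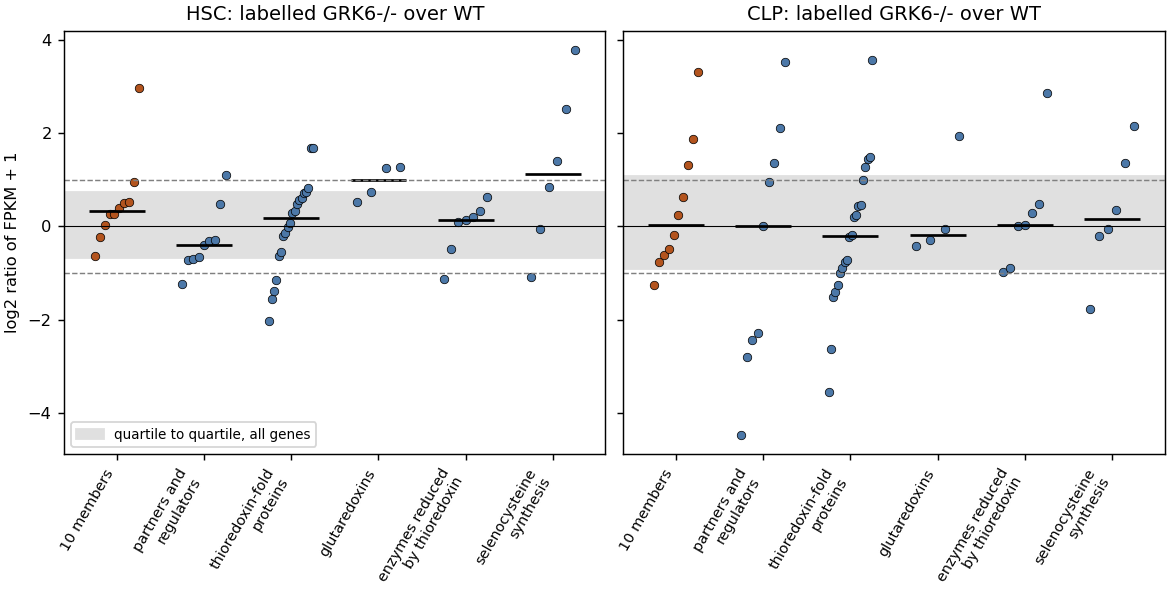
log2 ratio of FPKM + 1 in the library labelled GRK6-/- over WT for the 10 members (orange) and the 5 lists of related genes (blue), with 1 point per gene, black bars at each list's median, dashed lines at 2-fold and a grey band from the lower to the upper quartile of single genes (-0.68 to 0.74 in HSC and -0.91 to 1.09 in CLP). The band shows the scatter of single genes and is no measure for a list's median. Msrb3, without a row in either CLP library, is drawn at 0 in CLP. The bar of the enzymes reduced by thioredoxin is therefore at 0.03 in CLP, against a median of 0.16 for the 6 genes with a value.

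Promoter sequences were searched because several members differed between libraries. RefSeq entries (build GRCm38.p6, 250 bases before to 50 after the start) matched 9 of the 10 members, all but Prdx6. The letters TGACNNNGC, the core of the antioxidant response element, were found on either strand in Prdx1 and Txnrd1 and in 12.4% of all 32851 promoters. The E-box CACGTG was found in Prdx4 and in 7.15% of promoters, and the erythroid GATA letters AGATAA in none of the 9 and in 11.2% of promoters. The matches are shown with flanks, in the direction of the gene and with the motif in capitals, so that they can be located. The 2 matches to TGACNNNGC are on the opposite strand and so read as their reverse complement.
Prdx1: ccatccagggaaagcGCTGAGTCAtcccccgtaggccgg
Txnrd1: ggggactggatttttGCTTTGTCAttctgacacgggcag
Prdx4: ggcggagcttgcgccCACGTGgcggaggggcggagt
These stretches lie at chr4:116685451-116685489, chr10:82859099-82859137 and chrX:155338492-155338527. The motif began 133 bases before the start of Prdx1, 92 before that of Txnrd1 and 52 before that of Prdx4. Prdx1 and Txnrd1, which share the first motif, had log2 ratios of -0.61 and -0.76 in CLP and 0.94 and 0.02 in HSC. Of the 10 members, 5 were below 0 in CLP and 8 were above 0 in HSC, so these signs do not set the 2 genes apart. A match of letters is a description and does not show binding.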

How the data were processed

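RNA-seq of 4 libraries was analysed, 1 per group, as the labels name them. The cDNA of each sorted cell had been primed with poly(dT), tailed, amplified by 20 and then 10 cycles of PCR and pooled. The authors aligned the reads with the Tuxedo suite (TopHat 1.4.0 and mm9 in the submitters' processing notes) and deposited 1 FPKM value per gene and library. The version of the quantifier is not given in the sources used here. PCR amplification from few cells can enlarge differences between libraries, and FPKM hold no counts, so no count test was possible. No column of the tables was left unmapped.

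Rows with the same symbol were summed, genes without a row were set to 0, and the 333 symbols in rows that name several genes were left out, which leaves 12417, 8246 of them with a value in all 4 libraries. Ratios were log2 of (FPKM + 1) over (FPKM + 1), with 2-fold (log2 of 1) as threshold; a pseudocount of 1 understates the change of low genes. A gene entered a comparison if it had a value in either library. Members and lists were chosen with earlier results of these data known. Named genes are all members, Grk6, and from each list genes past 2-fold in the same direction in both populations and the largest rise and fall in each population with at least 10 FPKM in either library; Txnip and Msrb3 were named after their values were seen. For Txnrd2, the 5 genes of most similar profile were taken. limma 3.58.1 (R 4.3.3) was fitted to genes with a mean of at least 1 FPKM, with Benjamini-Hochberg adjustment. Fragments were estimated from genes of at least 1500 bases at no more than 0.3 FPKM, where values fall on steps of whole fragments (72.8% to 81.6% near a step), and counting intervals were exact at 95%. Scripts were tested on simulated data. Tables were handled in pandas 2.3.3 and numpy 2.4.6 (Python 3.11.15), intervals came from scipy 1.17.1, sequences were read with Biopython 1.88, and matplotlib 3.10.9 drew the plots.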

Additional observations from a re-analysis of the deposited data

Results flagged for a closer look

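Of the 10 members, 5 went in opposite directions in the 2 populations between the library labelled GRK6-/- and WT, and so did 5195 of 10398 genes (50.0%). Prdx1, Prdx4, Prdx6 and Txnrd1 were above WT in HSC and below it in CLP. Their log2 ratio in HSC minus that in CLP was 1.55 for Prdx1, 1.52 for Prdx4, 0.99 for Prdx6 and 0.79 for Txnrd1, whose ratio in HSC was only 0.02. Prdx5 went the other way, with a difference of -0.85.

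Of 18 named genes of the related lists (Pstk was not counted), 11 went in opposite directions (61.1%). Most had been named for a large rise or fall in 1 population, so large differences follow in part from the selection. Srxn1, Secisbp2, Tmx2, Glrx, Glrx2 and Msra were above WT in HSC and below it in CLP. The same difference was 5.55 for Srxn1 (1.09 in HSC and -4.46 in CLP), 5.55 for Secisbp2 and 3.08 for Tmx2. It was 1.67 for Glrx, 1.56 for Glrx2 and 1.11 for Msra. It was -3.91 for Txnrd3, -2.20 for Eefsec, -1.64 for Txnip and -1.42 for Msrb1, which went the other way. For Sesn1 it was -1.24, but its 2 CLP values were nearly equal (37.4 FPKM in both), so only the HSC libraries differed. Srxn1 had no row in WT HSC or in the library labelled GRK6-/- CLP, so its ratios depend on the pseudocount. With 1 library per group, none of these differences between populations was tested.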

How the results depend on the processing

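No paired analysis was possible because each group was 1 library and the titles carry no replicate numbers, although the limma fit with population as a term compares the genotype labels within each population. Leaving out a library removes the comparisons that use it, leaves the ratios of the others as they are, and leaves the limma fit with both terms no residual degree of freedom. All 40 log2 ratios of the members kept their direction with a pseudocount of 0.1 or 10, after rescaling to a median of 0 and with the highest row per symbol. With a pseudocount of 10, 5 of the 40 moved beyond their counting interval, by at most 1.26 (Txnrd2 in HSC), and 1 member remained past 2-fold for WT CLP against WT HSC (Prdx3, against 18.4% of all genes). At a 4-fold threshold, 1 member was past it in each comparison, namely Txnrd2 in HSC (12.4% of all genes), Prdx3 in CLP (24.8%) and between the WT populations (20.5%), and Prdx4 between the libraries labelled GRK6-/- (19.1%). The number of all genes past 2-fold, 4346 in HSC, 5593 in CLP, 5209 between the WT populations and 5340 between the libraries labelled GRK6-/-, was 1387, 2421, 2056 and 2057 with a pseudocount of 10 and 1445, 2775, 2292 and 2240 at the 4-fold threshold. In limma, 0 genes passed under any alternative, and the genotype difference of Prdx6 turned from 0.0022 to -0.014 after rescaling, far within its SE of 0.878. The limma adjusted p of the members was 0.947 to 1.0 for genotype and 0.840 to 0.997 for population over all alternatives. Depth limits mostly Txnrd2 in WT HSC, where 19 fragments give the widest counting interval (half-width 0.744 on the log2 scale).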
